A study of Mus musculus with 9 samples.

Results

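The Wnt signalling module described here comprised 45 genes of the 50600 in the deposited count table: 19 Wnt ligands, 10 Frizzled receptors, 8 secreted inhibitors of the Sfrp and Dkk families, 4 R-spondins, the co-receptors Lrp5 and Lrp6, and the secretion factors Porcn and Wls. Members were all genes whose symbol belongs to these families, whatever their level. A level of 1 TPM (the deposited length-corrected unit, comparable between genes of a library) was reached by 29 members in at least 1 library and by 16 in none. Tumoroids expressed a wider and different set of Wnt ligands and Frizzleds than organoids of normal small intestine, with Wnt7b in place of Wnt3 as the most abundant ligand and Fzd5 lower in every tumoroid library. Between organoids in the different conditioned media, 0 of 29 members were called, and of all genes 0.673% were called higher and 0.432% lower.

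RNA was sequenced from 3 groups of 3 libraries, with replicates from different mice according to the series' design. The organoids were labelled as intestinal epithelial cells of WT genotype and strain C57BL/6, taken from small intestine and kept for 24 hr in 50% conditioned medium (cM), from tumoroids (T-cM) or from WT organoids (WT-cM), made up with concentrated organoid medium. The tumoroids, cultures of intestinal tumour cells, were labelled Apc1638N/+, strain MIX and untreated, and the state of the other Apc copy is not given in the labels. For the 6 organoid libraries the title and the treatment field name opposite media. The split into groups of 3 is the same under either label. Groups are named here by title, as WT-cM-titled and T-cM-titled organoids, and every direction between them turns round if the treatment field is right. Organoid medium held EGF, Noggin and R-spondin1 in the labels of all libraries, whereas the study's methods keep tumoroids without R-spondin1. The methods also describe mixed-background mice, and tumours from older mice than the organoids, so that genotype, medium, strain and age cannot be told apart between tumoroids and organoids.

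As background, Wnt proteins receive a lipid from Porcn in the endoplasmic reticulum and are carried to the cell surface by Wls, where they bind Frizzled receptors together with Lrp5 or Lrp6 and stabilise β-catenin. R-spondins raise the response by keeping the ubiquitin ligases Rnf43 and Znrf3 from removing Frizzleds, Sfrp proteins bind Wnt ligands, and most Dkk proteins block Lrp5 and Lrp6. In the crypt of the small intestine Wnt3 comes from Paneth cells, while mesenchymal cells under the epithelium make further Wnts and R-spondins. Apc acts below the receptors, in the complex that degrades β-catenin.

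The count totals of the libraries lay between 16541635 and 25170966 reads. Epithelial markers (8 genes) summed to 10500 to 15000 TPM in organoids and to 12000 to 13800 TPM in tumoroids. Mesenchymal markers (13 genes) summed to 0.29 to 0.64 TPM in organoids and to 0.53, 5.14 and 2.02 TPM in tumoroids 1, 2 and 3, where Cd34 gave 4.70 TPM in tumoroid 2 and Pdgfrb 1.17 TPM in tumoroid 3. Col3a1 and Lum were at 0 in every library, as was the glial gene Sox10. Endothelial markers (4 genes) summed to 0.48 to 0.73 TPM in organoids and to 0.29, 0.35 and 3.06 TPM in the tumoroids, and glial and neuronal markers (4 genes) to 0.39 to 1.63 TPM and to 1.91, 2.49 and 2.31 TPM. Of the 8 epithelial genes 3 were called lower in tumoroids by the test used for the members, Vil1 (log2 fold change -2.15), Cdx1 (-1.44) and Krt19 (-1.11), and Krt18 was called higher (1.38). Paneth cell markers (8 genes) summed to 17500 to 20600 TPM in WT-cM-titled organoids, to 16000 to 17500 TPM in T-cM-titled organoids and to 8920, 1010 and 6130 TPM in tumoroids 1, 2 and 3. In tumoroids 4 of these 8 were called lower, whereas Mmp7 was called higher, at 138 to 221 TPM in organoids and 811, 318 and 1754 TPM in tumoroids (log2 fold change 1.98, adjusted p = 0.002217). For the epithelial and Paneth lists alike, the shares of all genes called in tumoroids were 12.1% lower and 21% higher. In bulk RNA, fewer cells of a type and less RNA per cell cannot be told apart, and the part of these other cells in the results was not tested.

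In the values that follow, libraries are listed as replicates 1, 2 and 3 of WT-cM-titled organoids, then of T-cM-titled organoids, then of tumoroids. The 11 members at 1 TPM or more in both tissues were Wnt3, Wnt5b, Porcn, Wls, Fzd4, Fzd5, Fzd6, Fzd7, Fzd8, Lrp5 and Lrp6. Another 17 reached this level only in tumoroids, namely 7 Wnts, 5 Frizzleds, Rspo4, Dkk2, Dkk3, Sfrp2 and Sfrp5, and 1, Dkk4, only in organoids. These 18 had to differ to some degree, because they entered the tests through the tissue in which they were high. The 16 that stayed below 1 TPM were Wnt1, Wnt2, Wnt2b, Wnt3a, Wnt8a, Wnt8b, Wnt9b, Wnt10b, Wnt11, Wnt16, Rspo1, Rspo2, Rspo3, Sfrp1, Sfrp4 and Dkk1. Of these, 8 had no read in any library (Wnt1, Wnt2b, Wnt3a, Wnt8a, Wnt8b, Rspo1, Rspo2 and Dkk1), and the highest count of the others was 16 reads, of Wnt16 in tumoroid 3. Wnt2b and Rspo1 to Rspo3 are ligands known from intestinal mesenchyme.

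**Figure D1:**
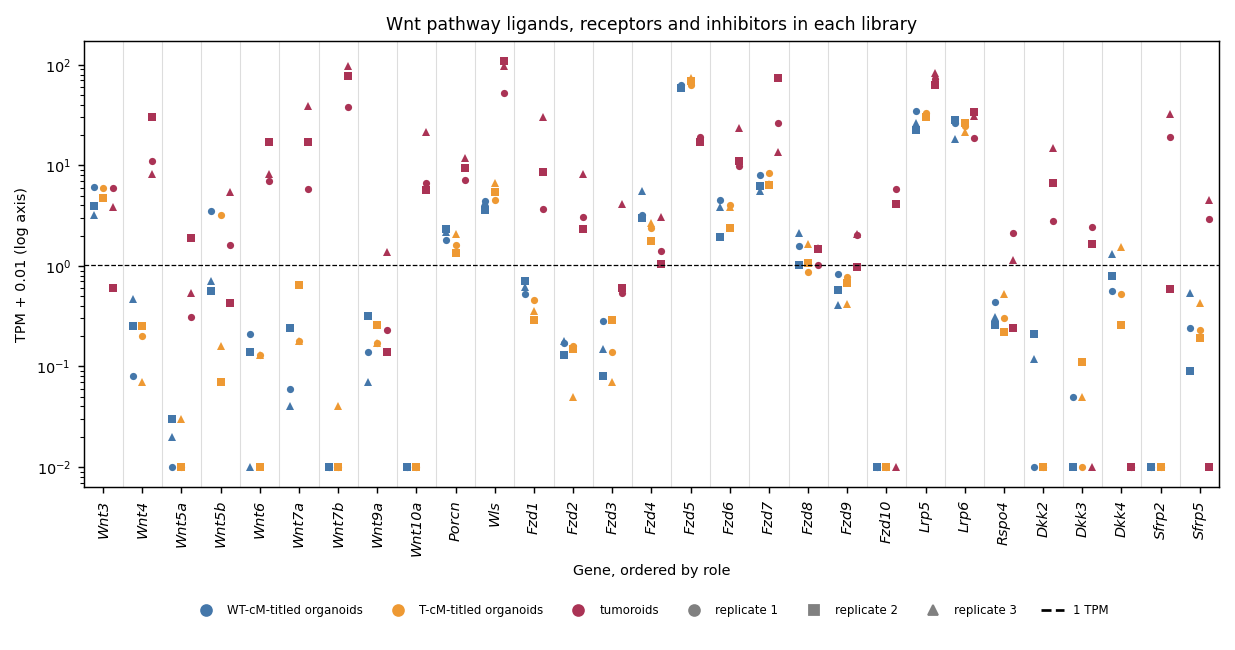
TPM of the 29 members that reach 1 TPM, on a log axis after adding 0.01, with 1 point per library (colour for the group, shape for the replicate) and a dashed line at 1 TPM. Wnt7b lies between 37.96 and 96.90 TPM in the tumoroids and at or near 0 in all organoid libraries, and Fzd5 is lower in every tumoroid than in any organoid library.

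Promoters were available for 28 of the 45 members (31 windows from 250 bases before to 50 after a gene start, RefSeq, GRCm38.p6), and Wnt7b, Wnt10a, Fzd2, Fzd3, Fzd6, Porcn, Dkk3, Dkk4, Lrp5, Lrp6 and Wnt5a were among those without one. They were searched on both strands for CTTTGAT and CTTTGAA, short core words of TCF/LEF factors, which act with β-catenin. At least 1 word was found in 3 of 31 windows (9.68%), of Dkk1, Wnt11 and Wnt5b, and in 2842 of all 32851 windows (8.65%). None of the 9 members that were called higher in tumoroids and have a window held one, which says only that these letters are not in the windows. The bases before the start are shown for the members the results turn on: Wls and Wnt6 (higher in tumoroids), Fzd5 (lower), and the Wnt5b window with a word, in capitals. All are given 5′ to 3′ on the strand of the gene, at chr3:159839400-159839648 (plus), chr1:74771642-74771890 (plus), chr1:64737752-64738000 (minus) and chr6:119449388-119449636 (minus).
Wls: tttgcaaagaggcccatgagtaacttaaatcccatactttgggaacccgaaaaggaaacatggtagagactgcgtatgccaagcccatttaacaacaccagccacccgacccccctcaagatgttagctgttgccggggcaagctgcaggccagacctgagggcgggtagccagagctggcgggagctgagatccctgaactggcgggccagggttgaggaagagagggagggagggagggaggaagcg
Wnt6: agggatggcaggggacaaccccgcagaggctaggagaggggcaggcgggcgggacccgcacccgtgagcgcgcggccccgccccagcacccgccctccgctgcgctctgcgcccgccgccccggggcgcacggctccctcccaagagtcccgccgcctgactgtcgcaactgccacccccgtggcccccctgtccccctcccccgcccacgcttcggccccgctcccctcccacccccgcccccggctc
Fzd5: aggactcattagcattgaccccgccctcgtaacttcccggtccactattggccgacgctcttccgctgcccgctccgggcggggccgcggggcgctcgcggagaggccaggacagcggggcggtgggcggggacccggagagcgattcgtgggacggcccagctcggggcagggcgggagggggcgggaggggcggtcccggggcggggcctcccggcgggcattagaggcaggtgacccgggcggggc
Wnt5b: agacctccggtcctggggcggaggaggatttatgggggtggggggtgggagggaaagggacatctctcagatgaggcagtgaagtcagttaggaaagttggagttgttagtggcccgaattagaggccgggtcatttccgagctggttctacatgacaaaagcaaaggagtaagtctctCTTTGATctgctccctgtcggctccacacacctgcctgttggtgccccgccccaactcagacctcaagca

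The comparison of tumoroids with the mean of both organoid groups asks how tumour epithelium differs in its Wnt signals and receptors. Of the 29 members tested, 17 were called higher and 3 lower in tumoroids, where called means an adjusted p under 0.05 (edgeR quasi-likelihood test, Benjamini-Hochberg over 16208 genes) and a log2 fold change above 1 in size. Among all genes tested, 21% were called higher and 12.1% lower. For 16 of the 29, every tumoroid library lay above every organoid library, and for 2 below, against 25.6% and 20.2% of all genes. The median log2 fold change was 2.59 over the 29 members and 0.16 over all genes. Among the 11 members at 1 TPM in both tissues it was 0.42, with 4 called higher and 2 lower. Fold changes are on CPM, counts scaled by library size with TMM factors, a scale on which the tumoroid libraries come out lower relative to organoids than on TPM.

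Of the 9 Wnt ligands tested, 6 were called higher in tumoroids and 0 lower, against 21% and 12.1% of all genes. All 6 reached 1 TPM only in tumoroids, so that they had to differ to some degree. The most abundant in tumoroids, Wnt7b (ENSMUSG00000022382.14, on chromosome 15, 85535437 to 85582473, minus strand, GRCm38), had 1 read over the 6 organoid libraries and 1129, 2478 and 3478 reads in the tumoroids. Its TPM was 0 in 5 organoid libraries, 0.03 in T-cM-titled replicate 3, and 37.96, 77.90 and 96.90 in the tumoroids. With a single organoid read, the pooled ratio of tumoroids to organoids was 9860 with an exact 95% interval of 1770 to 389000, covering counting error only (adjusted p = 2.352e-06). Part of its exon length (6.6%) is shared with the antisense gene AU022754, and although the libraries came from a stranded kit, the strand setting of the counting is not given in the sources used here. Wnt7a, its closest relative, gave 0.05, 0.23, 0.03, 0.17, 0.63 and 0.17 TPM in the organoids and 5.75, 16.88 and 39.11 TPM in the tumoroids (log2 fold change 6.29 ± 0.69 SE, adjusted p = 6.085e-05), which was 5.41 without tumoroid 3 and 6.92 without WT-cM-titled replicate 2. Both were higher in every tumoroid than in any organoid library.

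Wnt6 and Wnt10a lie next to each other on chromosome 1, on the plus strand and 6193 bases apart (74771892 to 74785322 and 74791516 to 74804179, GRCm38). Wnt6 gave 0.20, 0.13, 0, 0.12, 0 and 0.12 TPM in the organoids and 7.04, 17.03 and 8.19 TPM in the tumoroids (log2 fold change 6.21 ± 0.63 SE, adjusted p = 4.159e-05). Wnt10a had no read in any organoid library and 6.61, 5.68 and 21.22 TPM in the tumoroids. The tumoroid mean was at least 46.2-fold higher against a floor of 3 reads per library (adjusted p = 0.000318), or 25.9-fold without tumoroid 3. Thus both neighbours were higher in tumoroids, although Wnt6 was highest in tumoroid 2 and Wnt10a in tumoroid 3. The other Wnt pairs within 100000 bases were Wnt9b and Wnt3, Wnt10b and Wnt1, and Wnt3a and Wnt9a, of which only Wnt3 and Wnt9a were tested and 0 were called.

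Wnt4, which is also made outside the intestine in developing kidney and gonad, gave 0.07, 0.24, 0.46, 0.19, 0.24 and 0.06 TPM in organoids and 11.04, 30.47 and 8.24 TPM in tumoroids (log2 fold change 5.72 ± 0.57 SE, adjusted p = 3.463e-05), and 5.01 without tumoroid 2. Wnt5a, best known for signalling without β-catenin, stayed low, with 3 reads in all organoid libraries and 0.30, 1.88 and 0.53 TPM in the tumoroids. Its pooled ratio was 72.3 (exact 95% interval 24.3 to 355, adjusted p = 0.0002643), or 35.4 without tumoroid 2. On log2(TPM + 1) its fold change was 0.83, and with a tumoroid mean of 0.90 TPM it could not reach the fold threshold on that scale. Of its exon length 4.6% overlaps Gm2670 on the opposite strand. Like Wnt7a and Wnt6, these ligands were above all organoid libraries in each tumoroid.

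The remaining 3 Wnts at 1 TPM were not called. Wnt3, the Paneth cell ligand, gave 6.10, 3.89, 3.19, 5.93, 4.72 and 4.76 TPM in organoids and 5.98, 0.59 and 3.84 TPM in tumoroids (log2 fold change -0.92 ± 0.57 SE, adjusted p = 0.2124). Under the alternatives its log2 fold change ran from -1.64 to -0.42, and none called it. Tumoroid 2 had the lowest Wnt3, and also the lowest Paneth marker sum, with the Paneth gene Lyz1 at 9.01 TPM there against 427 and 811 TPM in tumoroids 1 and 3, and the part of Paneth cells in this value was not tested. Wnt5b, a relative of Wnt5a, was high in both organoid libraries of replicate 1, with 3.48, 0.55, 0.69, 3.18, 0.06 and 0.15 TPM in organoids and 1.62, 0.42 and 5.37 TPM in tumoroids (log2 fold change 0.42 ± 1.07 SE, adjusted p = 0.7736). Wnt9a lay at 0.06 to 0.31 TPM in organoids and at 0.22, 0.13 and 1.37 TPM in tumoroids (log2 fold change 1.17 ± 0.77 SE, adjusted p = 0.235), and without tumoroid 3 the sign of both Wnt5b and Wnt9a turned (-0.83 and -0.51).

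Summed over the family, Wnt TPM ranged from 4.71 to 10.51 in organoids and was 77.2, 151.2 and 185.9 in the tumoroids. Wnt3 held 58.0% to 82.9% of the Wnt TPM of each organoid library and 7.74%, 0.390% and 2.07% in the tumoroids, where Wnt7b held 49.2%, 51.5% and 52.1%. In organoids 1 or 2 Wnts reached 1 TPM per library, and in tumoroids 7, 6 and 8 did.

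**Figure D2:**
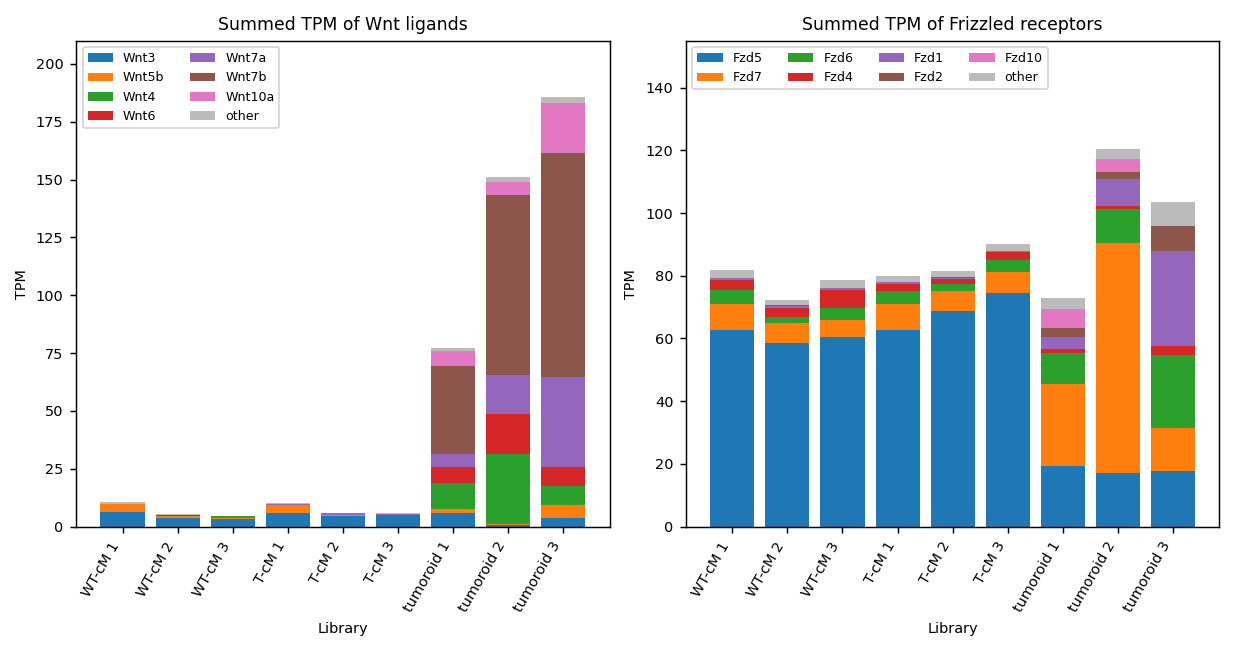
Summed TPM of the Wnt ligands (left) and of the Frizzled receptors (right) in each of the 9 libraries, stacked by gene on axes that start at 0, with the remaining family members as other. Wnt TPM is 4.71 to 10.51 in organoids, mostly Wnt3, and 77.2 to 185.9 in tumoroids, about equally Wnt7b and other Wnts, and Fzd5 makes up most of the Frizzled TPM only in organoids.

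Both secretion factors rose in tumoroids. Wls, the carrier of Wnt proteins to the surface (chromosome 3, 159839672 to 159938664, plus strand), gave 4.46, 3.62, 4.27, 4.51, 5.39 and 6.65 TPM in organoids and 52.05, 108.96 and 98.00 TPM in tumoroids. Its mean was 17.3 ± 4.06 CPM in organoids (SD, n = 6) and 212 ± 63.4 CPM in tumoroids (SD, n = 3), a log2 fold change of 3.63 ± 0.21 SE (adjusted p = 2.005e-06 in edgeR). Porcn, the acyltransferase, gave 1.78, 2.33, 2.16, 1.59, 1.34 and 2.06 TPM in organoids and 7.22, 9.48 and 11.80 TPM in tumoroids (log2 fold change 1.81 ± 0.26 SE, adjusted p = 0.000301). The lowest tumoroid was above the highest organoid library for both genes.

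Frizzled receptors moved in both directions, with 6 of 10 called higher and 2 lower, against 21% and 12.1% of all genes. Of the higher calls, Fzd6 and Fzd7 reached 1 TPM in both tissues. Fzd1, Fzd2, Fzd3 and Fzd10 did so only in tumoroids and had to differ to some degree. Fzd5 (chromosome 1, 64730558 to 64737751, minus strand) was the main Frizzled of organoids, at 62.85, 58.71, 60.47, 62.74, 68.70 and 74.59 TPM, and gave 19.33, 17.13 and 17.78 TPM in the tumoroids. That is 183 ± 19.6 CPM in organoids (SD, n = 6) and 35.6 ± 4.68 CPM in tumoroids (SD, n = 3), a log2 fold change of -2.36 ± 0.14 SE (adjusted p = 2.979e-06 in edgeR). Spread among the tumoroids was small here, and no tumoroid reached the organoid range. Gm38058 lies over 17.8% of the Fzd5 exon length on the opposite strand, and its reads would be shared with Fzd5 only if the counting ignored strand.

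Fzd7, a receptor of intestinal stem cells, gave 8.09, 6.18, 5.51, 8.41, 6.30 and 6.58 TPM in organoids and 26.09, 73.22 and 13.54 TPM in tumoroids (log2 fold change 1.91 ± 0.39 SE, adjusted p = 0.002655), and 1.06 without tumoroid 2 (adjusted p = 0.0082). Fzd1, its close relative, gave 0.52, 0.69, 0.60, 0.45, 0.28 and 0.35 TPM in organoids and 3.64, 8.63 and 30.06 TPM in tumoroids (log2 fold change 4.35 ± 0.54 SE, adjusted p = 0.0001369), and 3.14 without tumoroid 3. The third gene of this subgroup, Fzd2, gave 0.04 to 0.17 TPM in organoids and 3.08, 2.31 and 8.16 TPM in tumoroids (log2 fold change 4.60 ± 0.50 SE, adjusted p = 5.984e-05), and 3.87 without tumoroid 3. All were higher in each tumoroid than in any organoid library, but the tumoroids differed in which led, with Fzd7 the top Frizzled in tumoroids 1 and 2 and Fzd1 in tumoroid 3.

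Fzd6 gave 4.50, 1.94, 3.82, 3.99, 2.38 and 3.80 TPM in organoids and 9.91, 10.94 and 23.38 TPM in tumoroids (log2 fold change 1.59 ± 0.33 SE, adjusted p = 0.003196). Its relative Fzd3, also known for planar cell polarity, gave 0.06 to 0.28 TPM in organoids and 0.53, 0.59 and 4.13 TPM in tumoroids (log2 fold change 2.93 ± 0.73 SE, adjusted p = 0.008138), and without tumoroid 3 it was not called (1.29, adjusted p = 0.09999). No Fzd10 read was found in the organoids or in tumoroid 3, while tumoroids 1 and 2 gave 5.84 and 4.10 TPM, so that the groups overlap and the tumoroid mean is at least 18.5-fold higher (adjusted p = 0.01351), or 10.6-fold without tumoroid 1. In limma voom Fzd10 was not called (adjusted p = 0.0854).

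Fzd4 was lower in tumoroids by the fit, with overlap: 3.18, 2.97, 5.57, 2.39, 1.74 and 2.66 TPM in organoids and 1.39, 1.03 and 3.04 TPM in tumoroids (log2 fold change -1.24 ± 0.41 SE, adjusted p = 0.02826). The call was lost against T-cM-titled organoids alone (-0.83, adjusted p = 0.1631), on log2(TPM + 1) (-0.55, adjusted p = 0.1095), and also when any 1 of 4 libraries was left out, namely replicate 3 of the WT-cM-titled or the T-cM-titled organoids (adjusted p = 0.05728 and 0.05695), tumoroid 1 (0.09131) or tumoroid 2 (0.08103). Fzd8 and Fzd9 were not called, with Fzd8 at 0.85 to 2.12 TPM in organoids and 1.02, 1.45 and 1.51 TPM in tumoroids (log2 fold change -0.58 ± 0.38 SE, adjusted p = 0.2401). Fzd9 gave 0.40 to 0.82 TPM in organoids and 2.01, 0.97 and 2.09 TPM in tumoroids (log2 fold change 0.99 ± 0.42 SE, adjusted p = 0.07478). It was called without tumoroid 2 (1.28, adjusted p = 0.02866) and with upper-quartile factors (1.10, adjusted p = 0.04942).

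Summed Frizzled TPM was 72.25 to 90.14 in organoids and 72.8, 120.4 and 103.7 in tumoroids, so that the sums overlap. Fzd5 held 76.7% to 84.3% of it in organoids and 26.5%, 14.2% and 17.1% in the tumoroids.

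Of the co-receptors, Lrp5 gave 34.88, 22.51, 26.12, 32.85, 30.07 and 30.56 TPM in organoids and 72.16, 62.59 and 83.08 TPM in tumoroids. Its log2 fold change of 0.79 ± 0.14 SE passed the adjusted p (0.001385, edgeR) but not the fold threshold, while on log2(TPM + 1) it was 1.28. Lrp6 gave 26.17, 28.40, 18.33, 24.54, 26.49 and 21.44 TPM in organoids and 18.51, 33.59 and 30.92 TPM in tumoroids, with a log2 fold change of -0.34 ± 0.18 SE on CPM and 0.16 on log2(TPM + 1) (adjusted p = 0.1437 and 0.5432). The direction for Lrp6 therefore depends on the scale, and neither passed.

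Among the R-spondins, Rspo4 alone reached 1 TPM, with 0.43, 0.25, 0.30, 0.29, 0.21 and 0.51 TPM in organoids and 2.13, 0.23 and 1.14 TPM in tumoroids (log2 fold change 1.32 ± 0.64 SE, adjusted p = 0.1123). Tumoroid 2 lay within the organoid range, and without it Rspo4 was called (1.80, adjusted p = 0.01575). No other alternative called it, and its log2 fold change fell as low as 0.50 among them.

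Secreted inhibitors summed to 0.53 to 2.22 TPM in organoids and to 27.6, 8.94 and 51.9 TPM in tumoroids. Sfrp2, a binder of Wnt ligands (chromosome 3, 83766321 to 83774316, plus strand), had no organoid read and 19.23, 0.58 and 32.67 TPM in the tumoroids (279, 9 and 572 reads). The tumoroid mean was at least 64.5-fold higher (adjusted p = 0.003634), or 38.5-fold without tumoroid 3, and 16.1% of its exon length overlaps Gm26771 on the opposite strand. Dkk2, a blocker of Lrp5 and Lrp6, gave 0, 0.20, 0.11, 0, 0 and 0 TPM in organoids and 2.80, 6.63 and 14.73 TPM in tumoroids (adjusted p = 0.0002379). With 9 organoid reads, all in WT-cM-titled replicates 2 and 3, its pooled ratio was 107 (exact 95% interval 55.9 to 235), or 60.9 without tumoroid 3 and 204 without WT-cM-titled replicate 2. Dkk3, a divergent member of its family, gave at most 0.10 TPM in organoids and 2.43, 1.65 and 0 TPM in tumoroids (log2 fold change 5.07 ± 1.26 SE, adjusted p = 0.007886), and limma voom gave 2.85 ± 1.60 SE and no call (adjusted p = 0.1681). Its log2 fold change was 4.24 without tumoroid 1 and 6.05 without WT-cM-titled replicate 1. Sfrp2 and Dkk2 were above organoids in every tumoroid, whereas Dkk3 had no read in tumoroid 3.

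Dkk4, of the same family as Dkk2, was the reverse, with 5, 7, 17, 5, 2 and 15 reads in organoids (0.55, 0.78, 1.31, 0.52, 0.25 and 1.53 TPM) and none in tumoroids. Organoids were at least 3.85-fold higher (adjusted p = 0.004082 in edgeR). On log2(TPM + 1) the change was -0.82, and with an organoid mean of 0.82 TPM it could not reach the fold threshold on that scale. Sfrp5 was not called, at 0.08 to 0.53 TPM in organoids and 2.89, 0 and 4.53 TPM in tumoroids (log2 fold change 2.59 ± 0.99 SE, adjusted p = 0.0526), and without tumoroid 2 it was (3.15, adjusted p = 0.001787). It was also called in edgeR's newer quasi-likelihood form (adjusted p = 0.03364), with upper-quartile factors (0.04581), without a TPM filter (0.03175) and with a replicate block (0.03658). In limma voom the log2 fold change of Sfrp5 was smaller, at 0.95 ± 1.45 SE (adjusted p = 0.6164). Sfrp2, Sfrp5 and Rspo4 were all lowest in tumoroid 2.

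**Figure D3:**
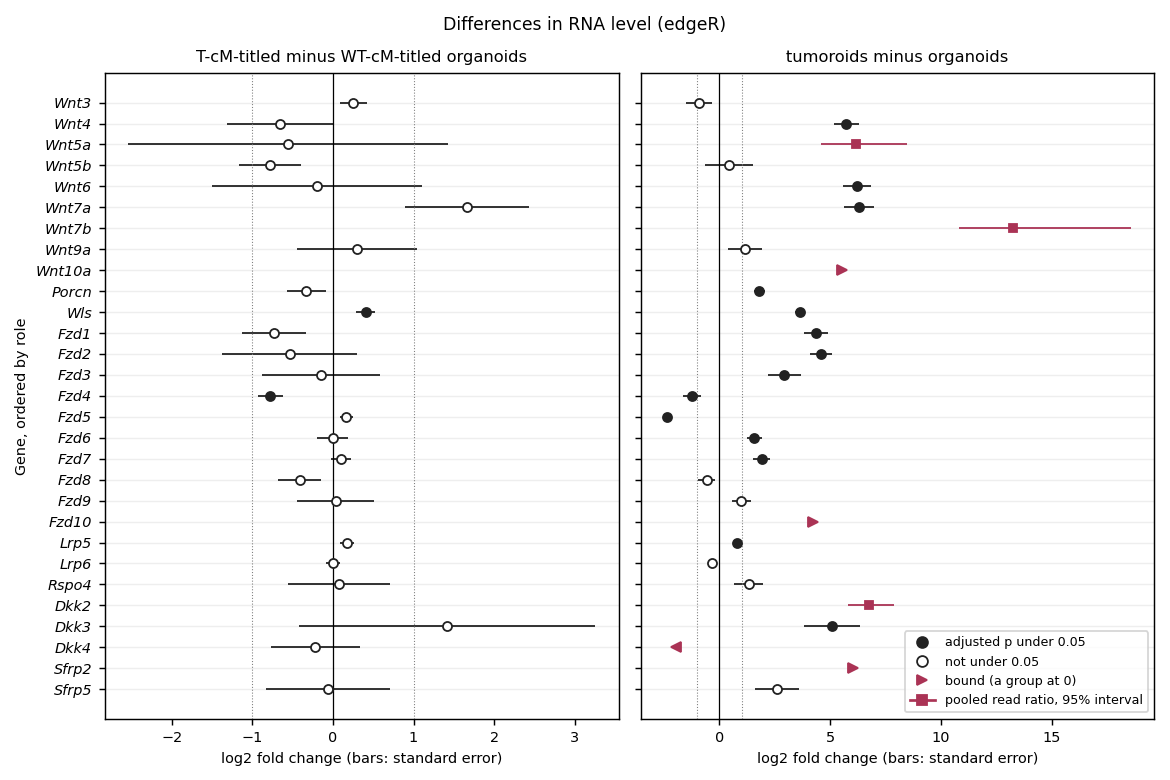
Log2 fold changes of the 29 members between organoid groups (left) and between tumoroids and organoids (right), with standard errors, filled where the adjusted p is under 0.05. Red triangles are bounds for genes at 0 in a group, red squares pooled read ratios with 95% intervals (Wnt5a, Wnt7b and Dkk2), dotted lines mark a log2 fold change of 1 in size, and members with a group at 0 are left out on the left. The right panel is mostly above 0, with 6 members below 0 (Fzd4, Fzd5 and Dkk4, and the uncalled Wnt3, Fzd8 and Lrp6), and only Wls and Fzd4 are filled on the left.

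Of 35 further genes of the pathway listed by hand, 26 were tested, 15 were called higher in tumoroids and 0 lower, against 21% and 12.1% of all genes. Of the 26, 7 were below 1 TPM in every organoid library and all 7 were among the higher calls (Lgr5, Notum, Wif1, Nkd1, Apcdd1, Tcf7l1 and Lef1), which had to differ to some degree because they entered the tests through the tumoroids. Lgr5, the R-spondin receptor of stem cells, gave 0.03 to 0.45 TPM in organoids and 21.28, 15.48 and 36.81 TPM in tumoroids (log2 fold change 6.47 ± 0.48 SE, adjusted p = 6.841e-06). Notum, a secreted enzyme that removes the lipid from Wnts, gave 0.06 to 0.71 TPM in organoids and 92.43, 87.69 and 157.93 TPM in tumoroids (log2 fold change 8.79 ± 0.48 SE, adjusted p = 1.614e-06). Axin2 (log2 fold change 3.02 ± 0.26 SE), Rnf43 (2.59 ± 0.15 SE) and Znrf3 (1.52 ± 0.24 SE), inhibitors within the pathway, were also higher, whereas Lgr4 gave -0.21 ± 0.14 SE (adjusted p = 0.2238).

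The comparison of organoid groups asks whether these genes differed between the conditioned media after 24 hr. By the study's methods WT-cM was conditioned from medium with R-spondin1, whereas tumoroids were kept without it. Carried-over R-spondin1 may therefore differ between the groups, and cannot be told apart from factors made by the tumoroids. In the fit with replicate number as a block, 0 of 29 members were called in either direction, while the share of all genes called was 0.673% higher and 0.432% lower with the T-cM title. Of the 29, Fzd10, Sfrp2 and Wnt10a had no read in any organoid library and could not be called, and 17 members were tested only because of their level in tumoroids. Without the fold threshold 2 members had an adjusted p under 0.05, against 10.1% of all genes, and 5 had an unadjusted p under 0.05, against 22% of all genes. limma voom also called 0 of 29 members, and DESeq2 0 of the 10 to which it gave an adjusted p. The median log2 fold change was 0 for the members and for all genes.

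Fzd4 (chromosome 7, 89404355 to 89413134, plus strand) was lower with the T-cM title in 3 of 3 pairs, at 8.13, 8.33 and 16.4 CPM in WT-cM-titled and 6.24, 4.75 and 7.50 CPM in T-cM-titled organoids. Its log2 fold change was -0.78 ± 0.15 SE (adjusted p = 0.0009466 in edgeR), and the groups did not overlap. Wls was higher in 3 of 3 pairs, at 14.9, 13.3 and 16.4 CPM and at 15.4, 19.3 and 24.5 CPM, with overlap (log2 fold change 0.40 ± 0.12 SE, adjusted p = 0.03231). Without replicate 1 both differences were larger (Fzd4 -0.99, adjusted p = 5.848e-08, and Wls 0.57, adjusted p = 0.0002156). Both missed the threshold without replicate 2 (Fzd4 -0.77, adjusted p = 0.361, and Wls 0.32, adjusted p = 0.5791). The same held with replicate 3 left out (-0.58, adjusted p = 0.1414, and 0.29, adjusted p = 0.4568). Without the block the adjusted p was 0.8731 for Fzd4 (-0.82) and 0.9287 for Wls (0.42). That of Wls also missed it in limma voom (0.1185), DESeq2 (0.1756), edgeR's newer quasi-likelihood form (0.08209) and its filter by expression (0.05638). On log2(TPM + 1) both missed it (Fzd4 -0.56, adjusted p = 0.2809, and Wls 0.34, adjusted p = 0.3626). Of the 8 Paneth markers 4 had an adjusted p under 0.05 between these groups, against 10.1% of all genes. All were lower with the T-cM title: Ang4 (log2 fold change -0.49), Defa17 (-0.37), Mmp7 (-0.35) and Itln1 (-0.26). The mesenchymal marker list held 1 call, Cd34, at 0.02, 0.02 and 0 TPM against 0.02, 0.27 and 0.13 TPM (adjusted p = 0.04015). Pdgfrb, the other gene of the list that was tested, had a log2 fold change of -0.71 (adjusted p = 0.3611 in edgeR). The list summed to 0.29 to 0.64 TPM in WT-cM-titled and 0.39 to 0.51 TPM in T-cM-titled organoids. The part of Paneth or mesenchymal cells in the Fzd4 and Wls values was not tested.

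The rest had adjusted p-values of 0.1581 or more in edgeR. Fzd1 was also lower in 3 of 3 pairs and without overlap, at 0.824, 1.22 and 1.11 CPM against 0.740, 0.475 and 0.620 CPM (log2 fold change -0.73 ± 0.40 SE, adjusted p = 0.2894). Wnt5b was lower in 3 of 3 pairs but varied far more between replicates, at 3.52, 0.608 and 0.797 CPM against 3.28, 0.0678 and 0.169 CPM (log2 fold change -0.78 ± 0.39 SE, adjusted p = 0.2377), and without replicate 1 it was called lower (-2.46, adjusted p = 0.02475). Wnt7a was higher in 3 of 3 pairs at under 1 CPM (log2 fold change 1.66 ± 0.77 SE, adjusted p = 0.1945), and Dkk2 had 0, 5 and 4 reads against none. Porcn was lower in 3 of 3 pairs with overlap (log2 fold change -0.33 ± 0.24 SE, adjusted p = 0.4812).

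Among the abundant members, Fzd5 gave 166, 169 and 183 CPM against 168, 193 and 216 CPM (log2 fold change 0.17 ± 0.08 SE, adjusted p = 0.2101). Wnt3 gave 7.14, 4.99 and 4.29 CPM against 7.09, 5.90 and 6.14 CPM (log2 fold change 0.25 ± 0.17 SE, adjusted p = 0.413), and Lrp6 a log2 fold change of 0.000279 ± 0.08 SE. Of the 26 further pathway genes tested 0 were called, and 3 had an adjusted p under 0.05, near the 10.1% of all genes: the Wnt receptor Ror2 (-0.60 ± 0.12 SE), the proteoglycan Sdc1 (-0.26 ± 0.08 SE) and the scaffold Dvl2 (0.43 ± 0.12 SE).

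**Figure D4:**
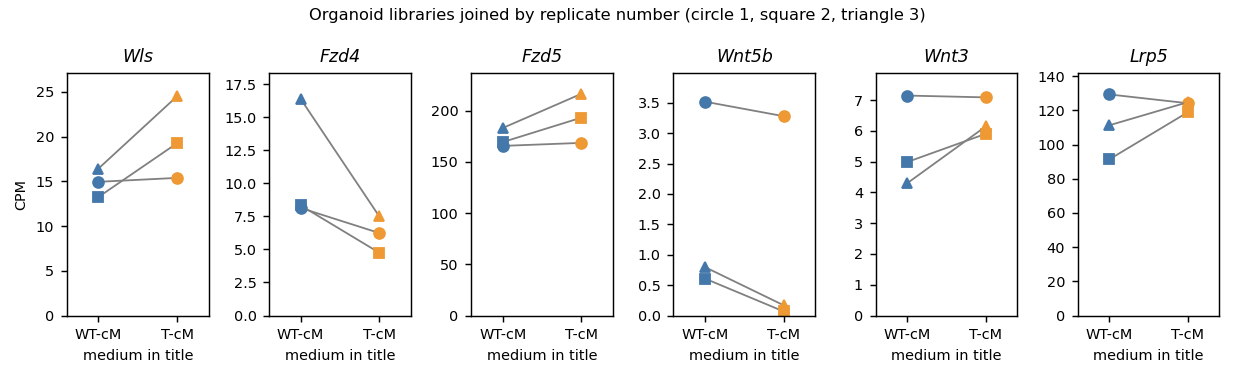
CPM of 6 members in the organoid libraries, with the libraries of a replicate number joined (circle 1, square 2, triangle 3) and axes that start at 0. Fzd4 is lower and Wls higher in the T-cM-titled library of 3 of 3 pairs, and Wnt5b is high in both libraries of replicate 1.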

How the data were processed

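The authors aligned reads to mm10 with STAR and deposited unnormalised read counts for each gene. The deposited TPM are the same counts corrected by the authors for gene length and library total. Libraries were made with a stranded kit, but the counting tool and its strand setting are not given in the sources used here. Libraries were grouped by title. Members and gene lists were chosen with earlier results of these data known.

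Genes with at least 1 TPM in at least 1 library (16208) were tested on counts in R 4.3.3 with edgeR 4.0.16 (TMM, quasi-likelihood test in its older form, Benjamini-Hochberg over all genes). Every member at 1 TPM is named with its values and the others as a list. The organoid groups were compared over 6 libraries with replicate number as a block, because same-numbered organoid libraries deviated together (r = 0.73, 0.552 and 0.742 over genes, log2(CPM + 1)). Tumoroids were compared with the mean of both organoid groups over 9 libraries without a block. The smallest count shown as a floor was 3 reads, and intervals cover counting error only. Alternatives were limma 3.58.1 (voom, or log2(TPM + 1)), DESeq2 1.42.0, other scalings and filters, the block, and each library left out. The methods were tested on simulated data. Gene positions come from a later Gencode release of GRCm38, and matched all 45 members. Protein sequences were not used here, and the leukocyte marker list is not reported here.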

Additional observations from a re-analysis of the deposited data

How the results depend on the processing

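Between the organoid groups, 0 members were called, 2 without a fold threshold, and 0 to 1 when each replicate was left out (1 lower, Wnt5b, without replicate 1). Without the replicate block 0 members and 0 genes were called, the smallest adjusted p being 0.601, and the genes with an unadjusted p under 0.05 numbered 904, against 3568 in the blocked fit. The number of all genes called higher and lower ranged widely, from 109 and 70 to 169 and 216 without replicate 1, 71 and 23 without replicate 3, 1 and 0 without replicate 2, 68 and 36 in limma voom, 63 and 30 in DESeq2, and 0 and 0 on log2(TPM + 1). Of 311 values for single members with an adjusted p under alternatives (DESeq2 gave none for 19 of the 29 members), 297 kept their side of the threshold, 12 (8 of Wls and 4 of Fzd4) lost it and 2 gained it. Apart from those of Wls and Fzd4, the 297 were of members that had not passed in the main fit either. Among the 297, 30 differed in sign from the main fit, changes from or to 0 included. In tumoroids against organoids, 20 members were called, and 16 to 22 under the alternatives. Lower calls went from 3 to 1 on log2(TPM + 1), where Dkk4, Fzd4 and, among the higher calls, Wnt5a were not called and Lrp5 was. Dkk4 and Wnt5a are too low to reach the fold threshold on that scale, and the cause for Fzd4 and Lrp5 was not tested. With a replicate block there were 21 calls. Same-number r between tumoroids and organoids ran from -0.049 to 0.253, which does not settle whether the numbers link them. The paper describes the sequenced tumoroids as the source of the T-cM. Leaving out each library gave 19 to 22 calls, 16 to 20 higher and 2 to 3 lower. Of 573 member values 554 kept their side, 9 lost it and 10 gained it, and 0 called values changed sign. On log2(TPM + 1) the median log2 fold change of all genes was 0.52 and with upper-quartile factors 0.27, against 0.16. The split of all calls was 4174 higher and 1143 lower on log2(TPM + 1), against 3400 and 1963. Depth limits, among others, the tested members with 1 to 9 reads over the 6 organoid libraries (Wnt5a, Wnt6, Wnt7b, Dkk2 and Dkk3).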
